A study of Mus musculus with 16 samples.

Results

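The 32 genes described here encode the protein folding machinery of the endoplasmic reticulum (ER) and the unfolded protein response, out of 47643 Ensembl gene identifiers counted in 16 libraries of mouse macrophages. They were taken as a given list and fall into 16 chaperones and folding enzymes, 4 genes for the stress sensors and Xbp1, 7 genes of the ATF4 arm, and 5 genes of ER-associated degradation and protein translocation. All 32 were found by identifier and were tested in each model fitted. RNA was read by QuantSeq, which counts 1 short read near the 3′ end of each captured messenger RNA. All cells came from wild type C57BL/6 mice, whose age is not given in the sources used here. The group called mexAM is a culture of alveolar macrophages grown outside the animal, here from mice 1, 2 and 4. A further 4 libraries hold cultures of the same kind from lavage pools: pool 1 at passage 13 and at passage 8, and pool 2 at passage 10 and at passage 5. BMDM are macrophages grown from the bone marrow of mice 1, 2 and 4. BALF and PLF are uncultured cells washed from the lungs and from the peritoneal cavity of mice 1, 2 and 4. Mice with the same number are taken as the same animal across groups. Each of mexAM, BMDM, BALF and PLF therefore holds 3 libraries, and the passage of the single-mouse mexAM cultures is not given in the sources used here.

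Secreted and membrane proteins fold inside the ER with the help of chaperones such as BiP, the product of Hspa5. When unfolded protein builds up there, BiP is released from 3 sensors, IRE1 (Ern1), ATF6 and PERK (Eif2ak3). IRE1 splices Xbp1 RNA, and XBP1 and cleaved ATF6 switch on chaperone and degradation genes through the ER stress response element (ERSE). PERK phosphorylates the initiation factor eIF2, which lowers general translation but raises that of ATF4. ATF4 is also raised by amino acid shortage, haem shortage and viral RNA through other eIF2 kinases, and it acts on amino acid and stress genes through composite C/EBP-ATF sites. Chaperone genes and ATF4 targets can therefore move apart, and both sets are followed here.

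RefSeq promoter windows (GRCm38.p6, 250 bases before to 50 bases after the gene start) were matched for 29 of the 32 members. The ERSE, searched on both strands as CCAAT and CCACG with 9 bases of any kind between them, was found in the windows of 8 members, which are Hspa5, Hsp90b1, Calr, Canx, Pdia6, Dnajc3, Creld2 and Syvn1. It was found in 0.119% of all 32851 windows. These 8 are 7 of the 14 chaperones with a window and 1 of the 5 degradation and translocation genes, while none of the 7 ATF4 arm windows held it. The shorter ERSE-II, searched as ATTGG and CCACG with 1 base of any kind between them, was found in Dnajb11 and Herpud1 and in 0.0365% of all windows. The C/EBP-ATF letters TGATGNAA were found in Trib3, Chac1, Asns and Herpud1 and in 3.97% of all windows, so Herpud1 held both kinds. The UPRE letters TGACGTGG were found in no member window and in 0.676% of all windows. Of the 7 ATF4 arm windows 3 held the C/EBP-ATF letters. The stretches below are shown because they hold the letters searched for, which other windows of both roles lack. They run 5′ to 3′ on the strand of the gene, with the motif in capitals.
Hspa5 ERSE: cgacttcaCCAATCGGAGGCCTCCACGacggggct
Hsp90b1 first ERSE: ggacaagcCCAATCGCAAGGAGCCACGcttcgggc
Hsp90b1 second ERSE: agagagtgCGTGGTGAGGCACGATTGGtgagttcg
Calr ERSE: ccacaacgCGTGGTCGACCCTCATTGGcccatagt
Canx ERSE: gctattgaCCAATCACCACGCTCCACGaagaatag
Pdia6 ERSE: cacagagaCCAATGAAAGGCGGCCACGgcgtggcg
Dnajc3 ERSE: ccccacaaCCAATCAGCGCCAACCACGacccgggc
Creld2 ERSE: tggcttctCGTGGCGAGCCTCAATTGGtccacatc
Syvn1 ERSE: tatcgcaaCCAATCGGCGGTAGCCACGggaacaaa
Herpud1 ERSE-II: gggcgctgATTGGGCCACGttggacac
Herpud1 C/EBP-ATF: acggcgggTTGCATCAgcccgcac
Chac1 C/EBP-ATF: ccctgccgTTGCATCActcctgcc
Trib3 C/EBP-ATF: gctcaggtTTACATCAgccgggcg
Asns C/EBP-ATF: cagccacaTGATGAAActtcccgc

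The Hspa5 ERSE lies at bases -65 to -47 from the gene start, in the stretch chr2:34772017-34772051 on the plus strand. The Herpud1 stretches lie at chr8:94386369-94386395 (ERSE-II) and chr8:94386309-94386332 (C/EBP-ATF), both on the plus strand. The Chac1 stretch is chr2:119351041-119351064 on the plus strand, and the Asns stretch is chr6:7693217-7693240 on the minus strand. The Trib3 match starts at base 15 after the gene start, while the other matches printed lie before it. The whole Hspa5 window, chr2:34771840-34772139 on the plus strand, is given as the promoter of the most counted member, with its 1 exact ERSE match in capitals.
Hspa5 promoter: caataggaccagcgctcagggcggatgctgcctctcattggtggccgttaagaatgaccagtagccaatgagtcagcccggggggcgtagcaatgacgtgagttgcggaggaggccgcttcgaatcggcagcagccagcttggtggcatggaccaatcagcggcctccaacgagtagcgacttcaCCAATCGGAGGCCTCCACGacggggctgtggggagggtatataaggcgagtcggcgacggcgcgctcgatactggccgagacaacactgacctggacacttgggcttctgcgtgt

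The libraries held 827791 to 2884679 counts in genes, and 1 count equals 0.336 to 1.24 CPM, the usual unit of counts scaled to library size, here with TMM-scaled totals. The alveolar macrophage marker list summed to 11230 to 13420 CPM in mexAM, 8341 to 10600 in the pools and 13230 to 18600 in BALF. It was 314 to 650 CPM in BMDM, while PLF libraries had 451 to 518 CPM. The peritoneal factor Gata6 had counts in PLF and was at 0 in the other groups. Other cell types were present unevenly. PLF held all 11 B cell markers (2572 to 2966 CPM), all 8 mast cell markers (1849 to 2076 CPM) and 7 of 8 plasma cell markers (351 to 394 CPM, Tnfrsf17 at 0). The plasma cell list summed to 18.1 to 24.7 CPM in mexAM, 69.0 to 82.9 CPM in BMDM and 82.65 to 101 CPM in BALF. Prdm1 was its most counted gene in each of these groups, averaging 168 of 377 CPM in PLF, 52.9 of 75.0 in BMDM and 89.0 of 92.5 in BALF. The B cell list summed to 1.47 to 3.16 CPM in mexAM, 105 to 126 CPM in BMDM and 2.26 to 5.56 CPM in BALF, and Cd79a was at 0 in all of these. BMDM held 1901 to 4988 CPM of the neutrophil list, against 339 to 796 in mexAM, 131 to 155 in BALF and 41.1 to 84.5 in PLF. Red cell and platelet transcripts summed to 1.47 to 5.88 CPM in mexAM and 810 to 916 CPM in BMDM, against 45.8, 513.5 and 753 CPM in BALF of mice 1, 2 and 4 and 1485 to 2087 CPM in PLF. Of this list Pf4 alone averaged 1834 CPM of a mean sum of 1862 in PLF and 839 of 852 in BMDM. In BALF the most counted gene was instead Hbb-bs, at 271 of 437 CPM. The lung epithelium list summed to 2.37 to 4.40 CPM in mexAM (7 of 10 genes at 0, all 4 surfactant protein genes among them) and 50.1 to 77.6 CPM in BMDM, against 83.3 to 102 CPM in BALF and 107 to 153.5 CPM in PLF. Napsa alone averaged 64.8 CPM of a mean sum of 65.7 in BMDM, where 7 genes were at 0. In PLF it averaged 119.2 of 128.5 CPM, with 6 genes at 0. The 4 surfactant protein genes were at 0 in both, while in BALF only Foxj1 was at 0. The T and NK cell list summed to 0.395 to 2.35 CPM in mexAM (5 of 8 genes at 0, all 3 Cd3 genes among them) and 2.20 to 2.96 CPM in BMDM, against 180 to 239 CPM in BALF and 173 to 181 CPM in PLF. In BALF Cd2 alone averaged 217.8 CPM of a mean sum of 218.8, with Cd3d, Cd3g, Nkg7 and Ncr1 at 0. In PLF no gene of this list was at 0, and Cd2 averaged 76.8 of 176.4 CPM. Gm42418, a ribosomal RNA locus, took 5.11% to 5.45% of counts in mexAM and 5.95% to 12.5% in BMDM, against 4.27% to 13.6% in BALF and 3.81% to 13.3% in PLF, where mouse 1 was the high library. Mitochondrial transcripts took 9.35% to 11.6% in mexAM, 12.4% to 16.4% in the pools and 8.94% to 10.4% in BMDM, against 12.1% to 16.3% in BALF and 9.94% to 10.9% in PLF. Reads outside genes made up 13.3% to 15.5% in mexAM, 10.6% to 12.4% in the pools and 20.8% to 28.3% in BMDM, against 19.9% to 21.4% in BALF and 27.6% to 29.9% in PLF. The part of these lists and shares in the differences between groups was not tested. In bulk RNA, fewer cells of a type and less RNA per cell cannot be told apart.

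Of the 16 chaperones and folding enzymes, 13 had their highest mean in BALF and 10 their lowest in mexAM. Together they summed to 3182 to 3979 CPM in mexAM, 3516 to 4762 in the pools and 3991 to 4347 in BMDM, against 6711 to 7423 in BALF and 5133 to 6999 in PLF. The ATF4 arm had another order, with 5 of its 7 genes highest in PLF and 4 lowest in BMDM. Its sum was 664 to 1173 CPM in mexAM, 275 to 476 in BMDM, 769 to 986 in BALF and 1080 to 1392 in PLF, and Atf4 itself made up 72.5% to 84.8% of it in each library. The sum of the chaperones was 3.39 to 4.79 times that of the ATF4 arm in mexAM and 3.45 to 5.75 times in the pools. It was 9.13 to 14.8 times in BMDM, 7.53 to 9.16 times in BALF and 4.66 to 5.03 times in PLF. Thus mexAM and PLF had low ratios with different levels behind them: chaperones were low in mexAM, and the ATF4 arm was high in PLF. These sums describe the list and were not tested.

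**Figure D1:**
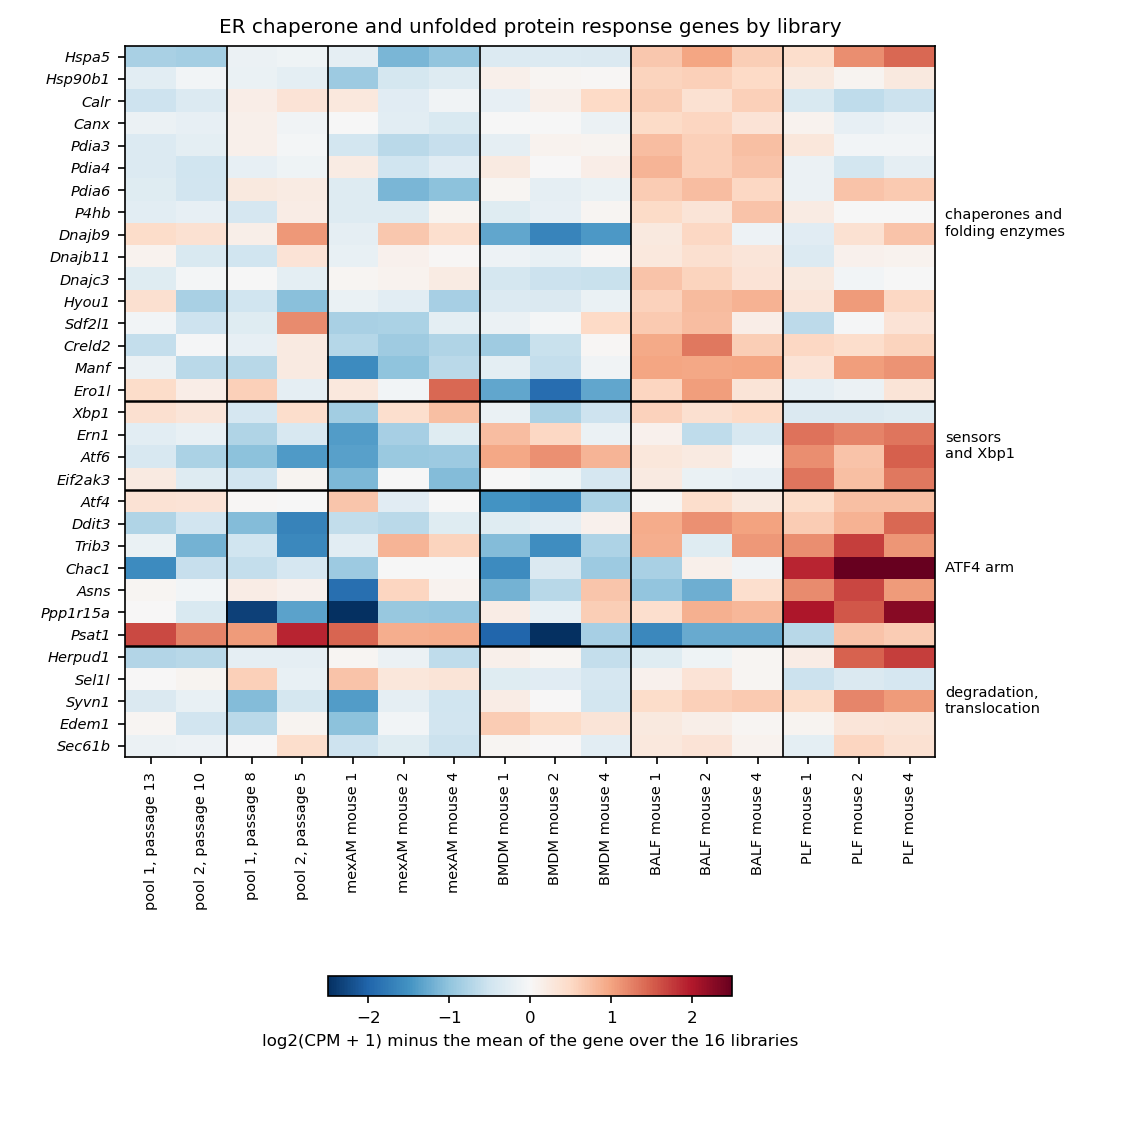
Level of each of the 32 members in each of the 16 libraries, as log2(CPM + 1) minus the gene's mean over the libraries (colour scale, saturated at 2.5 either side), with genes in rows by role and libraries in columns by group. Most chaperone rows are reddest in BALF, Chac1 and Ppp1r15a stand out in PLF, Psat1 is high in the alveolar cultures, and Dnajb9, Ero1l and Atf4 are low in BMDM.

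The comparison of mexAM with BALF sets cultured alveolar macrophages against the freshly washed-out cells of the same-numbered mice. In mexAM, 17 members fell and 1 rose, with a median log2 fold change of -0.66 over the 32 members against 0.01 over all genes tested. Of all genes tested 14.8% fell, 15.2% rose and 30.0% were called in either direction by edgeR's quasi-likelihood test at an adjusted p under 0.05. Among the chaperones and folding enzymes 11 of 16 fell and none rose, with a median of -0.999.

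Hspa5 (BiP) stood at 1118, 592 and 659 CPM in mexAM of mice 1, 2 and 4, against 2063, 2574 and 1992 CPM in BALF. Every mexAM library was below every BALF library, and mexAM of mouse 1 was the highest of its group. The log2 fold change was -1.49 ± 0.27 (SE, adjusted p = 0.000552). Manf, a secreted ER stress protein that binds BiP, had 38.2, 57.2 and 71.8 CPM in mexAM, against 230, 227 and 229 CPM in BALF. Its change, -2.02 ± 0.25 (adjusted p = 1.44e-05), was the largest among the members that fell apart from Ppp1r15a. The BALF values of Manf lay within 3 CPM of each other, and the mexAM values were all far below them.

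Creld2, an ER stress-induced folding factor, had 10.6, 9.28 and 10.3 CPM in mexAM, against 35.4, 46.4 and 27.9 CPM in BALF, a change of -1.84 ± 0.29 (adjusted p = 0.000128). Pdia3 (ERp57), the disulfide isomerase that works with the lectin chaperones, had 217, 186 and 199 CPM in mexAM, against 511, 447 and 504 CPM in BALF, a change of -1.28 ± 0.18 (adjusted p = 4.25e-05). For both genes the groups were well apart. Pdia6, another disulfide isomerase, fell by 1.44 ± 0.25, and Pdia4 fell by 0.92 ± 0.21 on the log2 scale. P4hb, the archetypal protein disulfide isomerase, fell by 0.69 ± 0.19.

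Hsp90b1 (GRP94), the ER member of the HSP90 family, had 289, 401 and 434 CPM in mexAM, against 797, 822 and 770 CPM in BALF, a change of -1.08 ± 0.19 (adjusted p = 0.000345). Hyou1, the nucleotide exchange factor of BiP, fell by 1.24 ± 0.31, and Sdf2l1, a partner of ER J-domain proteins, fell by 1.15 ± 0.28. Of the lectin chaperones, Canx (calnexin) fell by 0.66 ± 0.18, and Calr (calreticulin) had 779, 530 and 603 CPM in mexAM and 993, 838 and 972 CPM in BALF without passing the test (-0.55 ± 0.21, adjusted p = 0.0522).

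Of the folding genes 5 did not pass the test, and they include Calr and all 3 J-domain co-chaperones of BiP on the list. Dnajb9 (ERdj4), which brings BiP to misfolded proteins and to IRE1, had 83.5, 156 and 131 CPM in mexAM and 116, 139 and 89.2 CPM in BALF (0.12 ± 0.27, adjusted p = 0.78). Dnajb11 (-0.33 ± 0.19) and Dnajc3 (-0.43 ± 0.17, adjusted p = 0.0671) were lower in each mexAM library than in each BALF library but were not called. Ero1l, the oxidase that recharges protein disulfide isomerase, had 62.9, 49.8 and 143 CPM in mexAM and 75.7, 109 and 65.8 CPM in BALF (0.05 ± 0.34, adjusted p = 0.936). Its high mexAM value came from mouse 4, and the groups overlapped.

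**Figure D2:**
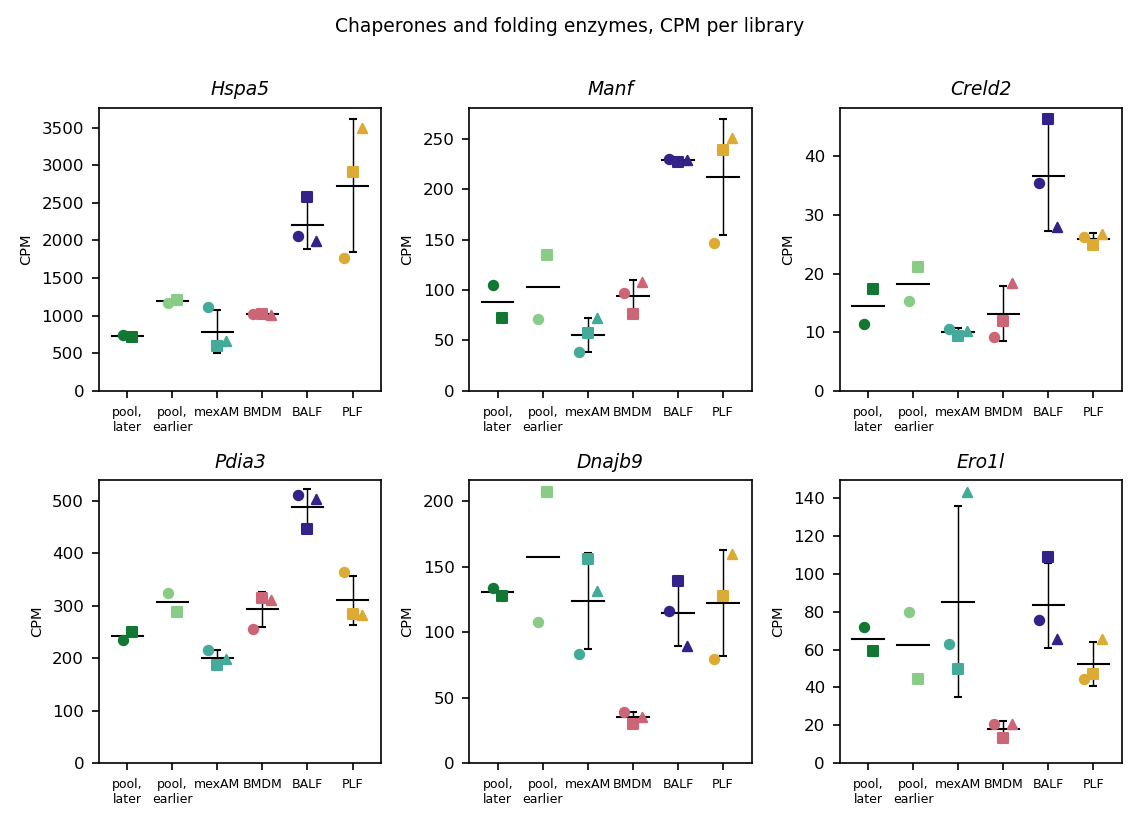
CPM of 6 folding genes in each library (points, circles for mouse or pool 1, squares for mouse or pool 2, triangles for mouse 4), with group means (lines) and SD (bars, groups of 3 only). Hspa5, Manf, Creld2 and Pdia3 are lower in both mexAM and BMDM than in BALF, while Dnajb9 and Ero1l are lowest in BMDM.

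Among the other roles in mexAM against BALF, Atf6 was the sensor gene that fell, by 1.23 ± 0.24 (adjusted p = 0.00096), with 18.2, 24.9 and 25.3 CPM in mexAM against 59.0, 56.6 and 46.9 CPM in BALF. Xbp1 (-0.24 ± 0.30), Ern1 (-0.53 ± 0.34) and Eif2ak3 (-0.66 ± 0.35) were not called, and each had overlapping groups. Of the degradation and translocation genes, 3 of 5 fell. Syvn1 (HRD1), the ubiquitin ligase of ER-associated degradation, had 15.3, 36.2 and 29.6 CPM in mexAM, against 58.3, 64.5 and 66.7 CPM in BALF, a change of -1.20 ± 0.29 (adjusted p = 0.00529). Sec61b, a translocon subunit, fell by 0.69 ± 0.22, and Edem1, a lectin that hands misfolded glycoproteins to degradation, fell by 0.61 ± 0.23. Herpud1 (-0.10 ± 0.33) and Sel1l (0.29 ± 0.18) did not pass the test.

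The ATF4 arm was split in the same comparison. Atf4 had 994, 504 and 616 CPM in mexAM and 638, 835 and 729 CPM in BALF, with overlapping groups (-0.06 ± 0.25, adjusted p = 0.895). Psat1, an enzyme of serine synthesis, had 148, 100.2 and 102 CPM in mexAM, against 16.7, 21.5 and 21.6 CPM in BALF, and was the only member that rose (2.56 ± 0.44, adjusted p = 0.000552). The genes of the arm that fell were Ddit3 and Ppp1r15a. Ddit3 (CHOP), a transcription factor of the stress response, had 21.8, 21.0 and 27.2 CPM in mexAM, against 65.3, 75.8 and 69.4 CPM in BALF (-1.57 ± 0.24, adjusted p = 0.000109). Ppp1r15a (GADD34), the phosphatase subunit that reverses eIF2 phosphorylation, had 2.94, 11.7 and 11.4 CPM in mexAM, against 31.95, 44.1 and 42.4 CPM in BALF (-2.10 ± 0.37, adjusted p = 0.000406). Trib3 (-0.27 ± 0.42), Asns (0.37 ± 0.68) and Chac1 (0.10 ± 0.84) were low in both groups and were not called.

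Of the 18 calls between mexAM and BALF, 16 were kept with each of the 6 libraries left out in turn. Edem1 lost its call when any 1 of BALF mice 1, 2 and 4 or mexAM mice 1 and 4 was left out (adjusted p up to 0.165), and also with mouse as a block (adjusted p = 0.0514). Sec61b lost its call without BALF mouse 1 or 2 or mexAM mouse 1 or 4 (adjusted p up to 0.0824). With BALF of mouse 1 as the only BALF library, the members' median was -0.72 and 12 were called, in a fit where that lone library is assumed to vary like the other groups. With library totals alone as scaling, the median of all genes was 0.22, and 2 members rose and 13 fell.

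BMDM, a culture of another origin, were also set against BALF. In BMDM 18 members fell and 1 rose, with a median of -0.63, while of all genes tested 18.2% fell, 19.3% rose and 37.4% were called. Both comparisons use the same BALF libraries, so their values are given side by side and not as separate evidence. Among the chaperones and folding enzymes 13 of 16 fell and none rose. Hspa5 had 1019, 1024 and 1005 CPM in BMDM, against 2063, 2574 and 1992 CPM in BALF, a change of -1.13 ± 0.27 (adjusted p = 0.00283). Manf fell by 1.29 ± 0.25 and Creld2 fell by 1.49 ± 0.28 in BMDM.

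Of the 5 folding genes not called in mexAM, 3 fell in BMDM. Dnajb9 had 39.1, 30.3 and 35.5 CPM in BMDM, against 116, 139 and 89.2 CPM in BALF, a change of -1.71 ± 0.29 (adjusted p = 0.000153). Ero1l had 20.6, 13.2 and 20.7 CPM in BMDM, against 75.7, 109 and 65.8 CPM in BALF, a change of -2.18 ± 0.38 (adjusted p = 0.00025). In both genes the groups were far apart. Dnajc3 (p58IPK), a co-chaperone that also inhibits eIF2 kinases, fell by 1.07 ± 0.17 (adjusted p = 0.000103). Calr (-0.38 ± 0.21), Dnajb11 (-0.43 ± 0.19) and Sdf2l1 (-0.44 ± 0.27) were not called.

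The sensors and the ATF4 arm of BMDM also differed from BALF. Atf6 had 95.3, 107 and 87.1 CPM in BMDM, against 59.0, 56.6 and 46.9 CPM in BALF, and was the single member that rose (0.82 ± 0.22, adjusted p = 0.00767). Xbp1 fell by 0.97 ± 0.30. Atf4 had 219, 211 and 354 CPM in BMDM, against 638, 835 and 729 CPM in BALF, a change of -1.50 ± 0.26 (adjusted p = 0.000177). Trib3, a pseudokinase induced by ATF4, fell by 2.20 ± 0.52, and Ddit3 fell by 1.19 ± 0.24. Psat1 had 12.7, 6.59 and 29.6 CPM in BMDM and was not called against BALF (-0.28 ± 0.49). Ppp1r15a (-0.49 ± 0.33), Asns (0.21 ± 0.70) and Chac1 (-1.30 ± 1.04) were not called either. Sel1l, the adaptor of the HRD1 ligase, fell by 0.51 ± 0.18 and was the only degradation or translocation gene called.

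Of these 19 calls, 13 were kept with each library left out in turn. Hsp90b1 (-0.48 ± 0.19) lost its call when any 1 of the 6 libraries was left out (adjusted p up to 0.132) and with mouse as a block (adjusted p = 0.0742). Canx, Pdia4 and Sel1l lost theirs when any 1 BMDM library, BALF mouse 1, or BALF mouse 2 (Canx, Sel1l) or 4 (Pdia4) was left out, with adjusted p up to 0.0898, 0.115 and 0.125. Pdia6 lost it without BALF mouse 2 or BMDM mouse 2 or 4 (adjusted p up to 0.0786), and Xbp1 without BALF mouse 1 or BMDM mouse 2 or 4 (adjusted p up to 0.0815). With BALF of mouse 1 as the only BALF library the members' median was -0.55 and 9 were called, and with library totals alone 3 rose and 11 fell. The neutrophil list was at 1901 to 4988 CPM in BMDM against 131 to 155 CPM in BALF, and its part in these differences was not tested.

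**Figure D3:**
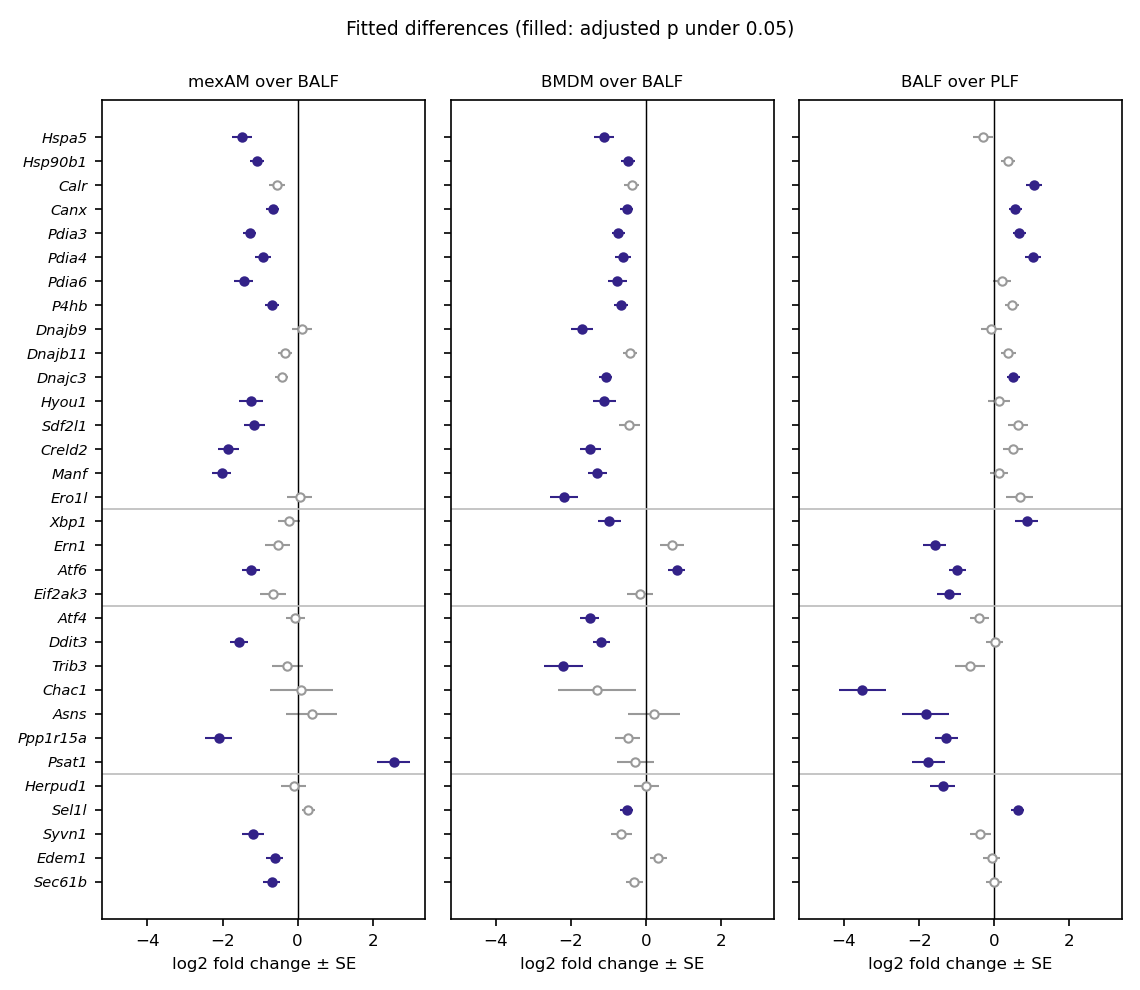
Log2 fold change ± SE of each member in mexAM over BALF, BMDM over BALF and BALF over PLF (panels), with filled points for adjusted p under 0.05 and horizontal lines between the roles. Most chaperones lie left of 0 in the first pair of panels, Psat1 is the far right point of the first, and Chac1 is the far left point of the third.

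The direct comparison of mexAM with BMDM tests where both cultures differ. In mexAM 7 members were higher and 9 lower than in BMDM, 16 of the 32, while of all genes tested 21.5% were higher, 23.0% lower and 44.6% called. The share of members called was close to that of all genes. Dnajb9 stood at 83.5, 156 and 131 CPM in mexAM, against 39.1, 30.3 and 35.5 CPM in BMDM, a difference of 1.83 ± 0.29 (adjusted p = 4.85e-05). Ero1l was higher in mexAM by 2.23 ± 0.37 (adjusted p = 0.000123) and Dnajc3 by 0.64 ± 0.17 (adjusted p = 0.00607). These 3 were the folding genes higher in mexAM, and for each of them the mexAM libraries lay above the BMDM libraries.

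Of the ATF4 arm 3 of 7 genes were higher and 1 was lower in mexAM. Atf4 was higher in mexAM by 1.44 ± 0.26 (adjusted p = 0.00019), Trib3 by 1.93 ± 0.50 (adjusted p = 0.00409) and Psat1 by 2.84 ± 0.43 (adjusted p = 6.82e-05). Ppp1r15a had 2.94, 11.7 and 11.4 CPM in mexAM, against 26.8, 20.4 and 36.7 CPM in BMDM, and was lower by 1.62 ± 0.36 on the log2 scale (adjusted p = 0.00154). Ddit3 (-0.39 ± 0.24) was not called. Atf6 was lower in mexAM (-2.05 ± 0.23, adjusted p = 1.26e-06), as was Ern1 (-1.24 ± 0.31, adjusted p = 0.00337). Sel1l was higher in mexAM by 0.80 ± 0.18 and Edem1 lower (-0.94 ± 0.22).

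Of the 16 calls, 11 were kept with each library left out. The other 5 were the folding genes lower in mexAM. Hsp90b1 (-0.60 ± 0.19) lost its call without BMDM mouse 1 or mexAM mouse 1 (adjusted p up to 0.0599) and Pdia3 (-0.54 ± 0.18) without BMDM mouse 2 or 4 or mexAM mouse 2 or 4 (up to 0.0745). Pdia6 (-0.68 ± 0.25) lost it without BMDM mouse 1 or mexAM mouse 2 or 4 (up to 0.127). Sdf2l1 (-0.71 ± 0.27) lost it without BMDM mouse 2 or 4 or mexAM mouse 1 or 2 (up to 0.192) and Manf (-0.73 ± 0.25) without BMDM mouse 1 or 4 or mexAM mouse 1 (up to 0.0996). Hspa5 itself was not called between the cultures (-0.36 ± 0.27, adjusted p = 0.295).

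In PLF the sensor Ern1, several genes of the ATF4 arm and Herpud1 were high. In BALF against PLF, 7 members were higher and 8 lower, with a median of 0.07, and of all genes tested 19.5% were higher, 20.8% lower and 40.3% called. By role the calls divided, with 5 of 16 chaperones higher and none lower in BALF, and 4 of 7 ATF4 arm genes lower and none higher. The 3 sensors were lower in BALF, with log2 fold changes of -1.59 ± 0.31 for Ern1, -1.21 ± 0.32 for Eif2ak3 and -0.98 ± 0.23 for Atf6. Ern1 had 23.6, 13.6 and 16.2 CPM in BALF, against 57.2, 53.0 and 56.5 CPM in PLF, with no overlap.

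Chac1, an enzyme that breaks down glutathione and a target of the ATF4 arm, was highest in PLF. It had 0.588, 1.96 and 1.97 CPM in mexAM, 0, 1.32 and 0.592 CPM in BMDM and 0.695, 2.26 and 1.80 CPM in BALF, against 10.1, 18.2 and 25.0 CPM in PLF. Each PLF library lay above every library of the other groups. BALF against PLF gave -3.52 ± 0.62 (adjusted p = 0.000212) and mexAM against PLF -3.42 ± 0.54 (adjusted p = 3.72e-05). The ratio of summed counts scaled by library size, BMDM over PLF, was 0.0303 (95% interval 0.00612 to 0.0918), since BMDM held 3 counts in all.

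Ppp1r15a was also highest in PLF, with 98.3, 70.4 and 118 CPM in PLF. Its log2 fold change against PLF was -3.38 ± 0.35 in mexAM, -1.76 ± 0.31 in BMDM and -1.27 ± 0.32 in BALF. Asns (asparagine synthetase) had 4.17, 3.39 and 12.6 CPM in BALF, against 22.2, 31.5 and 20.2 CPM in PLF (-1.83 ± 0.63, adjusted p = 0.0318). Its call was lost without BALF mouse 1 or 2 or PLF mouse 2 (adjusted p up to 0.128). Psat1 had 16.7, 21.5 and 21.6 CPM in BALF, against 32.3, 87.8 and 82.6 CPM in PLF (-1.76 ± 0.45, adjusted p = 0.00573). Atf4, Trib3 and Ddit3 were the genes of the arm not called, with Ddit3 at 65.3, 75.8 and 69.4 CPM in BALF and 53.2, 62.9 and 93.3 CPM in PLF (0.01 ± 0.23).

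**Figure D4:**
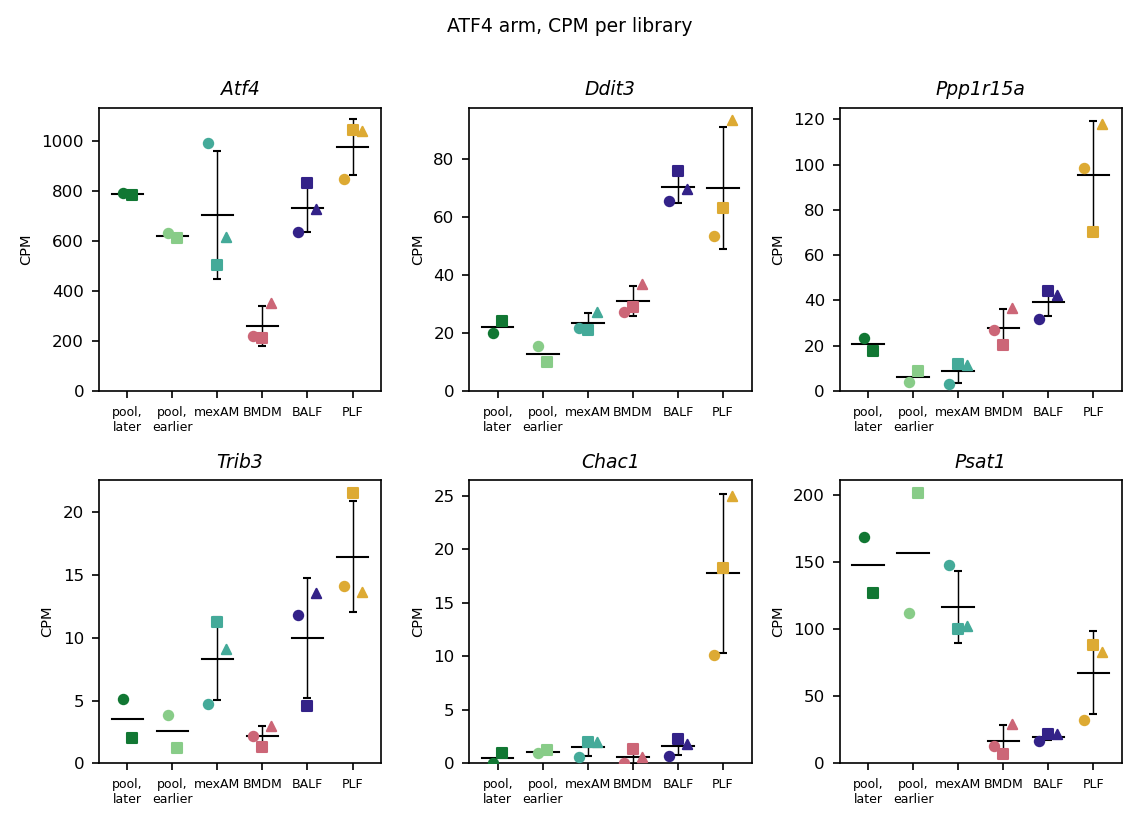
CPM of 6 genes of the ATF4 arm in each library (symbols, lines and bars as in the plot of folding genes). Chac1 and Ppp1r15a are highest in PLF, Ddit3 is high in BALF and PLF, Atf4 is lowest in BMDM, and Psat1 is highest in the alveolar cultures.

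Herpud1, an ER membrane protein of the degradation machinery whose promoter holds both an ERSE-II and C/EBP-ATF letters, had 155, 134 and 95.1 CPM in mexAM, 163, 155 and 98.3 CPM in BMDM and 120, 138 and 155 CPM in BALF, against 170, 417 and 495 CPM in PLF. PLF of mouse 1 was the lowest of its group yet above every library of the others. BALF against PLF gave -1.38 ± 0.33 (adjusted p = 0.00333). Hspa5 had 1766, 2913 and 3500 CPM in PLF, and BALF against PLF was not called for it (-0.29 ± 0.27, adjusted p = 0.414).

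Several chaperones were instead lower in PLF than in BALF. Calr had 993, 838 and 972 CPM in BALF, against 496, 417 and 446 CPM in PLF (1.06 ± 0.21, adjusted p = 0.000555). Pdia4 was higher in BALF by 1.04 ± 0.22 (adjusted p = 0.00098) and Pdia3 by 0.67 ± 0.18 (adjusted p = 0.00542). Canx (0.56 ± 0.18) and Dnajc3 (0.50 ± 0.17) lost their calls without BALF mouse 1 or 2 or PLF mouse 2 or 4 (adjusted p up to 0.0691 and 0.137). Xbp1 (0.86 ± 0.30) lost its call when any 1 of the 6 libraries was left out (adjusted p up to 0.0891), and Sel1l (0.62 ± 0.18) without BALF mouse 2 (adjusted p = 0.0528). With library totals alone as scaling, 2 members were higher and 8 lower, and 5 were called with BALF of mouse 1 as the only BALF library, at a median of 0.02.

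The cultures were set against PLF as well, and these comparisons share the PLF libraries. In mexAM against PLF 2 members were higher and 19 lower, with 28.4% of all genes tested higher, 29.6% lower and 57.9% called. Of the folding genes 7 of 16 were lower, among them Hspa5 (-1.77 ± 0.27), Manf (-1.90 ± 0.25), Creld2 (-1.35 ± 0.29) and Pdia6 (-1.24 ± 0.25). The ATF4 arm had 5 of 7 lower, among them Ddit3 (-1.56 ± 0.24), and Psat1 was not called (0.80 ± 0.38, adjusted p = 0.0856). All 3 sensors were lower, with log2 fold changes of -2.22 ± 0.23 for Atf6, -2.12 ± 0.30 for Ern1 and -1.87 ± 0.31 for Eif2ak3. Herpud1 (-1.48 ± 0.33), Syvn1 (-1.57 ± 0.29), Edem1 (-0.69 ± 0.22) and Sec61b (-0.70 ± 0.22) were lower, and Sel1l was higher (0.91 ± 0.18).

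With each library left out, 16 of these 21 calls were kept. Calr (0.51 ± 0.21) lost its call without mexAM mouse 1 or 4 or PLF mouse 2 or 4 (adjusted p up to 0.198) and with mouse as a block (adjusted p = 0.0565). Trib3 (-0.91 ± 0.38) lost it when mexAM mouse 1 or 4 or any 1 PLF library was left out (up to 0.192) and with the block (adjusted p = 0.0546). Asns (-1.46 ± 0.55) lost it without mexAM mouse 1 or 4 or PLF mouse 1 or 2 (up to 0.11), Edem1 without mexAM mouse 1 (adjusted p = 0.0528) and Sec61b without PLF mouse 2 (adjusted p = 0.0632).

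In BMDM against PLF 1 member was higher and 18 lower, with a median of -0.94, while of all genes tested 18.4% were higher, 18.0% lower and 36.5% called. All 7 genes of the ATF4 arm were lower in BMDM, and Atf4 had 219, 211 and 354 CPM in BMDM, against 850, 1044 and 1040 CPM in PLF (-1.90 ± 0.26, adjusted p = 2.07e-05). The groups of Atf4 were far apart. Trib3 (-2.84 ± 0.48) and Psat1 (-2.04 ± 0.43) were lower as well, as were Hspa5 (-1.42 ± 0.27), Dnajb9 (-1.79 ± 0.29) and Eif2ak3 (-1.37 ± 0.31). With libraries left out in turn 13 of 19 calls were kept. Calr, Dnajc3 and Hyou1 each lost theirs with 3 libraries left out: Calr (0.68 ± 0.21) with BMDM mouse 4 or PLF mouse 2 or 4, Dnajc3 (-0.56 ± 0.17) with BMDM mouse 2 or 4 or PLF mouse 1, and Hyou1 (-0.99 ± 0.31) with BMDM mouse 1 or 2 or PLF mouse 2, at adjusted p up to 0.0939, 0.0617 and 0.0957. Creld2 (-0.99 ± 0.28) lost it without BMDM mouse 1 (0.0708), Ern1 (-0.88 ± 0.28) without BMDM mouse 4 or PLF mouse 4 (up to 0.0976), and Asns (-1.62 ± 0.57) when BMDM mouse 1 or 2 or any 1 PLF library was left out (up to 0.151).

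B cell, mast cell, plasma cell and red cell and platelet lists had high sums in PLF, at the levels given above. All 11 B cell and 7 mast cell genes tested were lower in mexAM, BMDM and BALF than in PLF. Of 4 plasma cell genes tested, all 4 were lower in mexAM and BALF and 3 in BMDM. Of 3 red cell and platelet genes tested, 2 were lower in mexAM and 1 in BMDM than in PLF. In BALF 2 of these 3 were lower and 1 was higher. The red cell and platelet level in PLF was mostly Pf4. Of the 5 T and NK cell genes tested, all 5 were lower in mexAM and in BMDM than in PLF. In BALF against PLF 4 of them were lower and 1 was higher, with a median of -6.06. The part of these transcripts in those differences was not tested. Ddit3 lies on the opposite strand from Mars and overlaps it, and the strand setting of the counting is not given in the sources used here. Mars held 748 counts over all libraries and Ddit3 994, so reads of this pair cannot be told apart if strand was ignored. The same holds for Syvn1 (1178 counts) and Mrpl49 (384 counts), and Manf (3156 counts) overlaps Rbm15b (398 counts) on its own strand and Dcaf1 (425 counts) on the other.

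Other genes of the same pathways were followed as wider lists, whose counts in mexAM against BALF stand beside 15.2% of all genes tested that rose and 14.8% that fell. Of 19 other ER folding factors tested, 4 rose and 5 fell in mexAM against BALF. Hspa13, an HSP70 relative in the ER, averaged 26.1 ± 3.27 CPM in mexAM, 43.0 ± 1.36 CPM in BMDM, 87.1 ± 10.0 CPM in BALF and 96.2 ± 8.04 CPM in PLF (SD, n = 3 each). It fell in mexAM against BALF by 1.73 ± 0.20 (adjusted p = 4.93e-06). Cnpy2 (0.88 ± 0.20) and the glucosidase subunit Ganab (0.82 ± 0.21) rose. Of 21 other translocon, signal peptidase and glycosylation subunits 4 fell and none rose, among them Spcs3 (-1.16 ± 0.29) and Ssr3 (-0.96 ± 0.19). Of 15 other degradation factors tested 4 fell and none rose, among them Ube2j1 (-1.02 ± 0.21) and Edem3 (-0.96 ± 0.24). Of 15 other regulators of the response tested 2 rose and none fell. With lists of this size no list is read as set apart from all genes. The 2 regulators were Eif2ak4 (GCN2, the kinase that senses amino acid shortage; 1.01 ± 0.26) and the stress regulator Nupr1 (1.44 ± 0.39). Eif2ak4 lost its call without BALF mouse 1.

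Of 12 amino acid genes of the ATF4 programme tested, 4 rose and 3 fell in mexAM against BALF. Phgdh, the first enzyme of serine synthesis and so the partner of Psat1, averaged 32.1 ± 12.9 CPM in mexAM, 1.27 ± 0.08 CPM in BMDM, 5.76 ± 1.88 CPM in BALF and 4.15 ± 2.90 CPM in PLF. It rose in mexAM against BALF by 2.51 ± 0.42 (adjusted p = 0.000272) and was higher in mexAM than in BMDM by 4.58 ± 0.49 (adjusted p = 7.23e-07). Gpt2 (2.37 ± 0.68) and Pck2 (1.67 ± 0.35) also rose, though Gpt2 lost its call without BALF mouse 4 or mexAM mouse 4. The cystine transporter Slc7a11 averaged 71.0 ± 27.2 CPM in mexAM and 27.2 ± 1.53 CPM in BMDM, against 1495 ± 434 CPM in BALF and 1344 ± 37.9 CPM in PLF. In mexAM against BALF it fell by 4.39 ± 0.29 (adjusted p = 1.39e-08), and its partner Slc3a2 fell by 1.86 ± 0.26. Psat1 and Phgdh were thus higher in mexAM than in BALF, while Slc7a11 and Slc3a2 were lower.

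The tRNA synthetases, a large group of ATF4 targets, summed to 998 to 1031 CPM in mexAM, 662 to 799 CPM in BMDM, 796 to 1036 CPM in BALF and 1517 to 1564 CPM in PLF. BMDM and BALF overlapped slightly, and PLF was above all of them. In BMDM against PLF 11 of 12 were lower and none higher, among them Mars (-1.76 ± 0.25) and Cars (-1.74 ± 0.30), where 18.0% of all genes were lower. In mexAM against BMDM 4 were higher and none lower, with Gars at 1.75 ± 0.22 and Aars at 1.05 ± 0.24, where 21.5% of all genes were higher. Among the regulators, Cebpb, which pairs with ATF4 at composite sites, averaged 208 ± 31.2 CPM in BMDM, against 1071 ± 197 CPM in BALF (-2.37 ± 0.21, adjusted p = 1.35e-07). It stood at 1043 ± 152 CPM in mexAM and 1051 ± 101 CPM in PLF, so its lowest level was in BMDM. Gadd45a, a growth arrest gene, averaged 16.2 ± 5.29 CPM in mexAM and 23.5 ± 2.38 CPM in BALF, against 318 ± 69.0 CPM in PLF. Atf3, another stress transcription factor, fell in mexAM against BALF by 1.71 ± 0.29 and in BMDM against BALF by 1.17 ± 0.29.

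Members with an ERSE in the promoter window were followed as a description, since the motif was searched after the values were seen. Of the 8, 6 fell in mexAM against BALF and 6 in BMDM against BALF, with medians of -1.14 and -0.71, where 14.8% and 18.2% of all genes fell. Of the 16 chaperones and folding enzymes, with or without the motif, 11 and 13 fell in these comparisons. The motif is therefore not read as setting members apart. Outside the members, 4 tested genes had an ERSE in their window, and none of them was called in mexAM against BALF by edgeR (Pan2 -0.38 ± 0.91, Adcy3 -0.54 ± 0.42, Alg12 -0.07 ± 0.41 and Hnrnpa3 -0.45 ± 0.24). In BMDM against BALF only Adcy3 among these was called (-5.14 ± 0.57). Of the 4 members with C/EBP-ATF letters, all 4 were lower in mexAM than in PLF, as were 29.6% of all genes, and none was called against BALF. Of 216 other tested genes with these letters, 35 rose and 42 fell in mexAM against BALF, beside 15.2% and 14.8% of all genes, and nothing is read from these counts.

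The pool cultures, which are separate from the single-mouse mexAM, also had low chaperone levels. Passages of a pool were summed, since they share a lavage pool, which leaves 2 pools against 3 mice. Raw counts were summed, so the later passage weighs more in each pool. It held 1490455 gene counts against 1038002 at the earlier passage in pool 1, and 2884679 against 827791 in pool 2. The BALF libraries are those already used above. Against BALF 1 member rose and 17 fell, with a median of -0.66, while of all genes tested 13.6% rose, 12.4% fell and 26.0% were called. Of the folding genes 12 of 16 fell, and all 8 members with an ERSE in the window were among the 17. Hspa5 had 741 and 720.5 CPM at the later passages of pools 1 and 2 and 1175 and 1205 CPM at the earlier ones, against 2063, 2574 and 1992 CPM in BALF (-1.31 ± 0.29, adjusted p = 0.00281). Each pool library lay below each BALF library.

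Manf fell in the pools by 1.34 ± 0.27, Pdia4 by 1.07 ± 0.23, Pdia3 by 0.85 ± 0.19 and Ddit3 by 1.79 ± 0.26 against BALF. Psat1 had 168 and 127 CPM at the later passages and 112 and 201 CPM at the earlier ones, and rose by 2.90 ± 0.45 (adjusted p = 0.000204). These 6 genes kept their calls with each of the 5 columns left out in turn. The other 12 calls were each lost with at least 1 column left out, and 9 members were called without pool 1, 7 without pool 2 and 10 with library totals alone as scaling. Hsp90b1 (-0.68 ± 0.20), P4hb (-0.70 ± 0.20) and Ppp1r15a (-1.27 ± 0.36) lost theirs when pool 1 or pool 2 was left out, at adjusted p up to 0.15, 0.161 and 0.0966. Calr (-0.69 ± 0.22) lost it without pool 1 or 2 or BALF mouse 1 or 4 (up to 0.159), and Canx (-0.52 ± 0.19) and Pdia6 (-0.79 ± 0.27) without pool 1 or 2 or BALF mouse 1 or 2 (up to 0.302 and 0.242). Dnajc3 (-0.65 ± 0.18) lost it without pool 1 or 2 or BALF mouse 1 (up to 0.126), and Syvn1 (-0.96 ± 0.31) without pool 1 or 2 or BALF mouse 2 or 4 (up to 0.209). Hyou1 (-1.12 ± 0.36) lost it without pool 2 or BALF mouse 2 or 4 (up to 0.358), and Trib3 (-1.69 ± 0.53) without pool 2 or BALF mouse 1 or 4 (up to 0.266). Creld2 (-1.16 ± 0.29) lost it without pool 1 (0.0944) and Atf6 (-0.91 ± 0.25) without pool 2 (0.151).

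Against the single-mouse mexAM, no member was called in the pools by edgeR and none by DESeq2, and 6 members had an unadjusted p under 0.05. Of all genes tested 0.698% were called. By size the first 4 of the 32 differences were Trib3 (-1.42 ± 0.50, adjusted p = 0.194), Chac1 (-0.94, adjusted p = 0.662, from few counts), Ppp1r15a (0.83 ± 0.38, adjusted p = 0.331) and Manf (0.68 ± 0.26, adjusted p = 0.226). Trib3 had 5.10 and 2.01 CPM at the later and 3.85 and 1.24 CPM at the earlier passages, against 4.71, 11.2 and 9.08 CPM in mexAM, with an overlap between pool 1 and mexAM of mouse 1.

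Between passages of the pools no member was called by edgeR or DESeq2, with 6 at an unadjusted p under 0.05, and of all genes tested 0.0095% were called. The edgeR fit took its spread mostly from the groups of mice and did not pair the passages of a pool. With pool as a block no member was called either. Later passages were lower than earlier ones in both pools for 11 members, higher in both for 8, and opposite in the pools for 13. Hspa5 had 741 and 720.5 CPM at the later passages, against 1175 and 1205 CPM at the earlier ones (-0.70 ± 0.31, adjusted p = 0.518). Calr had 448 and 511 CPM at the later passages, against 724 and 813 CPM at the earlier ones (-0.68 ± 0.25, adjusted p = 0.447). For both genes each later passage lay below each earlier one, but the difference did not pass the test.

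Atf4 had 792 and 784 CPM at the later passages, against 634 and 611 CPM at the earlier ones (0.34 ± 0.29, adjusted p = 0.8). Ppp1r15a had 23.6 and 17.8 CPM at the later passages, against 3.85 and 8.68 CPM at the earlier ones (1.75 ± 0.56, adjusted p = 0.372). Its earlier values rest on 4 counts in pool 1 and 7 in pool 2. The 95% counting interval of its ratio in pool 2 was 0.928 to 5.34. Ppp1r15a was called when genes with low counts were kept in. Pdia6 had ratios of later over earlier passage of 0.691 in pool 1 and 0.622 in pool 2 (-0.61 ± 0.28, adjusted p = 0.545). Of the 16 chaperones and folding enzymes, 7 were lower at the later passage in both pools, 1 was higher in both and 8 were opposite, and none was called.

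**Figure D5:**
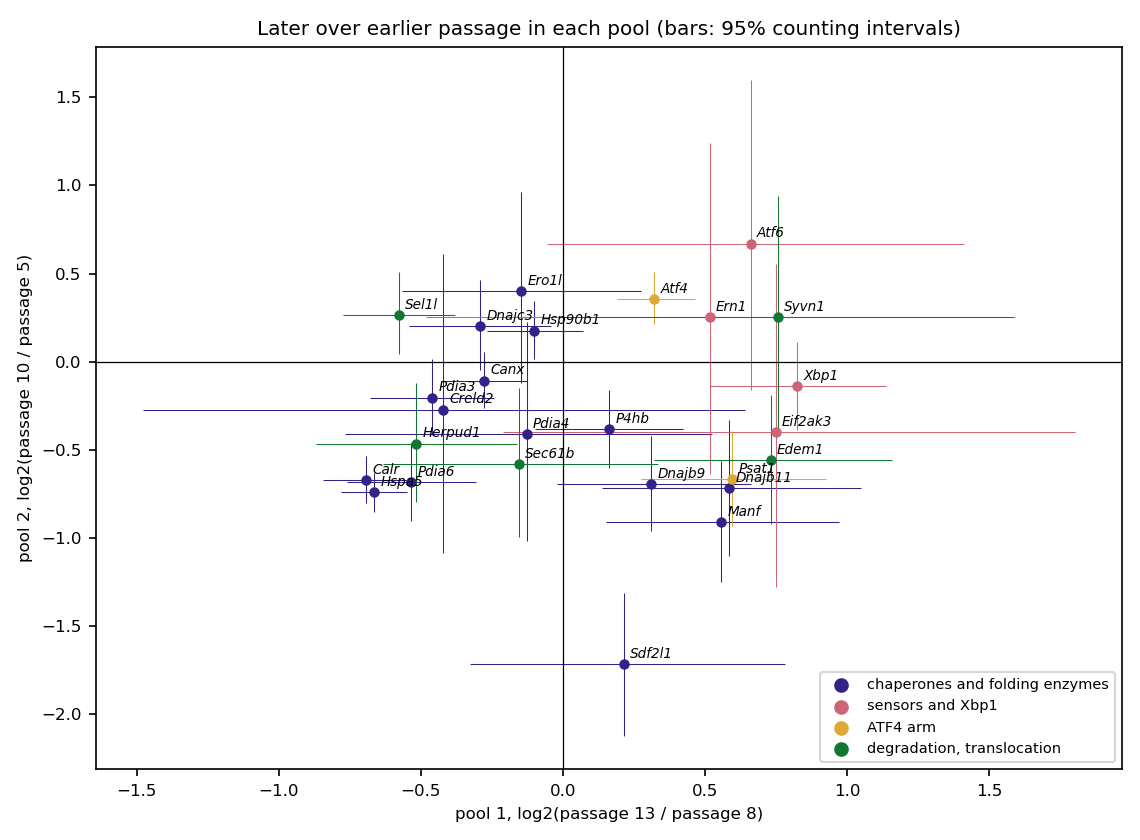
Log2 ratio of CPM at the later over the earlier passage in pool 1 (horizontal axis) and pool 2 (vertical axis) for the 26 members with at least 10 counts in each pool library, with 95% counting intervals (bars) and colours by role. Hspa5, Calr and Pdia6 lie at the lower left, Atf4 in the upper right, and Psat1, Manf, Dnajb11 and Edem1 in the lower right.

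Spread within the groups was uneven among the members. The median coefficient of variation over the 32 members was 26.2% in mexAM, 15.7% in BMDM, 12.3% in BALF and 23.1% in PLF. In mexAM the library of mouse 1 was the lowest for 16 members and the highest for 12, so it was in the middle for the other 4. In PLF the library of mouse 1 was the lowest for 17 members, among them Hspa5, Herpud1, Manf and Psat1. Without it, 15 members were called in BALF against PLF, 18 in BMDM against PLF and 20 in mexAM against PLF. Without mexAM of mouse 1, 17 were called in mexAM against BALF, 15 against BMDM and 19 against PLF.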

How the data were processed

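RNA of 16 libraries was measured by QuantSeq 3′ FWD with a UMI module, per the labels' protocols. The authors' deposited files hold raw read counts per Ensembl gene, on GRCm38 (mm10) per the submitters' processing notes. No source used here names the aligner, the counting program, its strand setting, the annotation or a UMI collapsing step, and intervals cover counting error only. The 5 closing lines without a gene stayed out. The line for reads outside genes alone held 10.6% to 29.9% of all counts, genes and closing lines together.

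Names came from GENCODE M21, promoter windows from RefSeq. Genes were filtered (filterByExpr), TMM-scaled and tested with the robust quasi-likelihood F test of edgeR 4.0.16 in R 4.3.3: 12 libraries (10011 genes, 8 residual degrees of freedom), 14 columns with the passages of a pool summed (10602 genes, 9) and 16 libraries for passage (10527 genes, 10). The p-values were Benjamini-Hochberg adjusted over all genes, threshold 0.05, and SE is the log2 change over the root of F. CPM are TMM-scaled. Alternatives were other scaling, no filter, DESeq2 1.42.0, mouse as a block, and left-out libraries. All 32 members were named. Of other lists, up to 3 called genes a direction and comparison with 10 CPM and no overlap were eligible, and the genes in the text are a selection of these. The Hspa13, Phgdh, Slc7a11, Cebpb and Gadd45a levels in further groups and the motif search were added after values were seen. The members and lists were chosen with earlier results of these data known. The labels number the mice across cell types, and same-numbered libraries were taken to come from 1 animal. Their deviations correlated at -0.118 to 0.22 (18 pairs, median -0.0207, 2 above 0.1).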

Additional observations from a re-analysis of the deposited data

Results flagged for a closer look

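For 5 members the later over earlier passage ratio lay on opposite sides of 1 in the 2 pools, with 95% counting intervals that exclude 1 in each. The difference between the pools was not tested, and each pool has 1 library per passage. Dnajb11, a co-chaperone of BiP, had ratios of 1.5 in pool 1 and 0.607 in pool 2, and Manf had 1.47 and 0.531. Psat1 had 1.51 in pool 1 and 0.63 in pool 2, and Edem1 had 1.66 and 0.678. Sel1l ran the other way, at 0.67 in pool 1 and 1.2 in pool 2. Other members had intervals that excluded 1 on the same side in both pools. Ratios in pools 1 and 2 were 0.631 and 0.598 for Hspa5, 0.619 and 0.628 for Calr and 0.691 and 0.622 for Pdia6. They were 0.699 and 0.724 for Herpud1 and 1.25 and 1.28 for Atf4. None of these members was called between passages. The passages themselves differ between the pools, 13 over 8 in pool 1 and 10 over 5 in pool 2.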

How the results depend on the processing

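No member that was called changed its direction under any alternative run. Of 3296 member results under alternatives, 3060 kept their side of the threshold, 208 lost a call and 28 gained one. With BALF of mouse 1 as the only BALF library, assumed to vary like the other groups, the genes called were 1318 in mexAM against BALF and 2429 in BMDM against BALF, and the members called were 9 in BMDM against BALF and 5 in BALF against PLF. With library totals alone, 10 members were called in the pools against BALF, and the median over all genes was 0.22 in mexAM against BALF, 0.32 in BMDM against BALF, -0.27 in BALF against PLF and 0.20 in the pools against BALF, with TMM scaling 0.008, 0.026, -0.013 and 0.003. The split of all called genes was then 2235 higher and 1082 lower, 2783 and 1223, 1402 and 2836, and 2007 and 959 in these 4. With no filter on low counts, 380 genes were called in the pools against mexAM and 80 genes with 1 member (Ppp1r15a) between passages; DESeq2 called 177 and 33. Leaving out 1 library at a time, members called ran from 16 to 19 in mexAM against BALF, 13 to 15 against BMDM and 17 to 22 against PLF, 13 to 17 in BMDM against BALF and 16 to 18 against PLF, 10 to 15 in BALF against PLF, 7 to 14 in the pools against BALF, and 0 to 0 in the pools against mexAM and between passages. All genes called ran from 2288 to 2738, 3744 to 4419, 5232 to 5640, 3142 to 3573, 3004 to 3627, 3391 to 4053 and 1604 to 2427 in the first 7 of these, 6 to 99 in the pools against mexAM (6 without pool 2, 9 without pool 1, 28 without mexAM mouse 1 and 48 without mouse 4) and 0 to 0 between passages. The replicate block by mouse gave 17 members in mexAM against BALF, 19 against PLF and 18 in BMDM against BALF and changed no call beyond the 4 given above; with pool as the block no member was called between passages. Numbers of pools and mice are not shared, so no block was fitted for pools against mexAM or BALF. Chac1, Trib3 and Asns rest on few counts, as does Ppp1r15a at the earlier passages, which limits what can be detected for them.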
